A study of Mus musculus with 4 samples.

Results

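Female mouse epiblast stem cells (EpiSCs) without functional Smchd1 were compared with wild-type cells in the presence of the XistdeltaA mutation. The comparison rests on 2 of the 4 samples of the series. The library labelled Smchd1 +/+ is the control, and the library labelled Smchd1 MD1/MD1 carries the MD1 mutation on both copies. Both are heterozygous for the Xist mutation (XistdeltaA/+), and both were derived at E6.5. The strain of both is a cross of C57BL6/J with an F1 animal of JF1 and C57BL6/J. Each genotype is 1 library. The spread between cultures or animals is therefore unknown, so no test of Smchd1 genotype is possible. The labels do not say whether either line is a single clone, and do not say which parent passed on XistdeltaA. The remaining pair of libraries carries Xist1lox/+ and is used only where a value below is set beside it. Expression was read for every gene as FPKM, a fragment count scaled to transcript length and library size. Strain variants gave for each gene the share of allele-assigned reads that came from the paternal allele.

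EpiSCs are the cultured counterpart of the early post-implantation epiblast, and in female cells 1 of the X chromosomes is silenced. The silenced X is coated by Xist RNA, which recruits repressors through its A repeat, and XistdeltaA is a Xist allele without that repeat. Smchd1 is a protein related to the SMC family of chromosome proteins that accumulates on the inactive X and is needed to keep many of its genes silent. MD1 is a nonsense allele of Smchd1. A small group of X-linked genes, called escape genes, is normally read from both X chromosomes.

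Allele-assigned reads summed to 7826600 in the +/+ library and 8008500 in the MD1/MD1 library. In the whole series they ranged from 7301034 to 8008500. Smchd1 (chromosome 17, 71693834 to 71824683, mm9) stood at 27 FPKM in +/+ and 6.68 in MD1/MD1, a log2 ratio of -1.87 on the FPKM + 1 scale. Its paternal share was 51.2% of 1549 reads in +/+ (95% exact interval 48.7 to 53.7). In MD1/MD1 0 of 399 reads were paternal, which allows a share of up to 0.752%. The lower level is thus in the library labelled as mutant. Primed epiblast genes were expressed in both libraries, with the pluripotency factor Pou5f1 at 551 FPKM in +/+ and 856 in MD1/MD1.

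Genes of fibroblasts and macrophages, cell types other than EpiSCs, were higher in MD1/MD1. Only 3 genes of both lists were among the 352 X-linked genes compared for share below, and none was called or gained. Leaving them out therefore could not change the counts of 154 genes with a higher paternal share and 71 gained. The part of such RNA in the reads of other X-linked genes was not tested. EpiSCs are grown on fibroblast feeder layers as a rule, and the labels do not say whether these were. A list of 30 fibroblast genes summed to 284 FPKM in +/+ and 939 in MD1/MD1. Of its 29 measured members (mean FPKM of at least 1), 19 were higher in MD1/MD1 by 2-fold or more and 0 were lower by as much, with a median log2 ratio of 1.59. S100a4, a calcium-binding protein of fibroblasts and other motile cells, stood at 6.9 and 199.6 FPKM, and the collagen gene Col1a1 at 9.31 and 30.7. The matrix genes Bgn and Timp1, both on the X chromosome, stood at 19.9 and 79.2 FPKM and at 23.6 and 76.5. Thbs1 was at 49 and 112 FPKM, and Fbln2 at 8.42 and 55.5. The difference for macrophage genes was wider. Of 50 listed genes, 35 were measured, 33 of them higher in MD1/MD1 by 2-fold or more and 0 lower, with a median log2 ratio of 2.82. Their sum went from 36.5 to 1295 FPKM, and 21 members were listed at 0 in +/+ against 0 in MD1/MD1. In both Xist1lox/+ libraries the sum was 463 in +/+ and 417 in MD1/MD1. The +/+ XistdeltaA/+ library was thus the lowest of 4 and its MD1/MD1 partner the highest. Among the background of all 11544 measured genes, 4.12% were higher in MD1/MD1 by 2-fold or more and 1.82% lower by as much, with a median log2 ratio of -0.047.

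Lyz2, the macrophage lysozyme, stood at 0.384 FPKM in +/+ and 799 in MD1/MD1, and only 0.0265% of its 11311 allele-assigned reads in MD1/MD1 were paternal. Gpnmb, a glycoprotein of phagocytes, stood at 0.14 and 84.5 FPKM with 0.436% paternal reads, and the lysosomal protease Ctss at 0.0436 and 61.5 with 5.49%. Tyrobp, a signalling adaptor of myeloid receptors, was listed at 0 in +/+ and at 43 FPKM in MD1/MD1. The complement gene C1qa was also listed at 0 in +/+ and stood at 19.5 in MD1/MD1. Cd14, a receptor for bacterial lipopolysaccharide, stood at 1.16 and 16 FPKM, and the macrophage growth factor receptor gene Csf1r at 0.233 and 4.72. Not all members followed this pattern. Cd68, a lysosomal protein of macrophages, stood at 21.7 FPKM in +/+ and 34.6 in MD1/MD1, while its paternal share fell from 61% to 18.6%. Coro1a stood at 6.71 and 12.1 FPKM, and Cfp at 3.09 and 7.99. Aif1 (0.45 and 0.316) and Lyz1 (0 and 0.223) were below the expression minimum. In bulk RNA, fewer cells of a type and less RNA per cell cannot be told apart. In the autosomal regions where the MD1/MD1 library shows both parental alleles (defined below), 22 macrophage genes had at least 20 reads and a median paternal share of 3.53%, and 16 fibroblast genes had a median of 13.3%. The other 8728 genes there had a median of 46.9%. Of 7 macrophage genes in regions with maternal-type alleles only, 4 had a paternal share of at least 10% in MD1/MD1, among them Trem2 with 46.3% of 244 reads. Of 9 fibroblast genes there 2 did, beside 5.92% of all 1688 genes in such windows. The 3 fibroblast and macrophage genes compared on the X chromosome, Bgn, Timp1 and Cfp, had 4 paternal reads of 2561 in MD1/MD1 and 0 of 737 in +/+. Cybb, an X-linked subunit of the phagocyte oxidase, was listed at 0 in +/+ and had 0 paternal reads of 229 in MD1/MD1. Endothelial genes were not measured above the expression minimum (0 of 6).

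**Figure D1:**
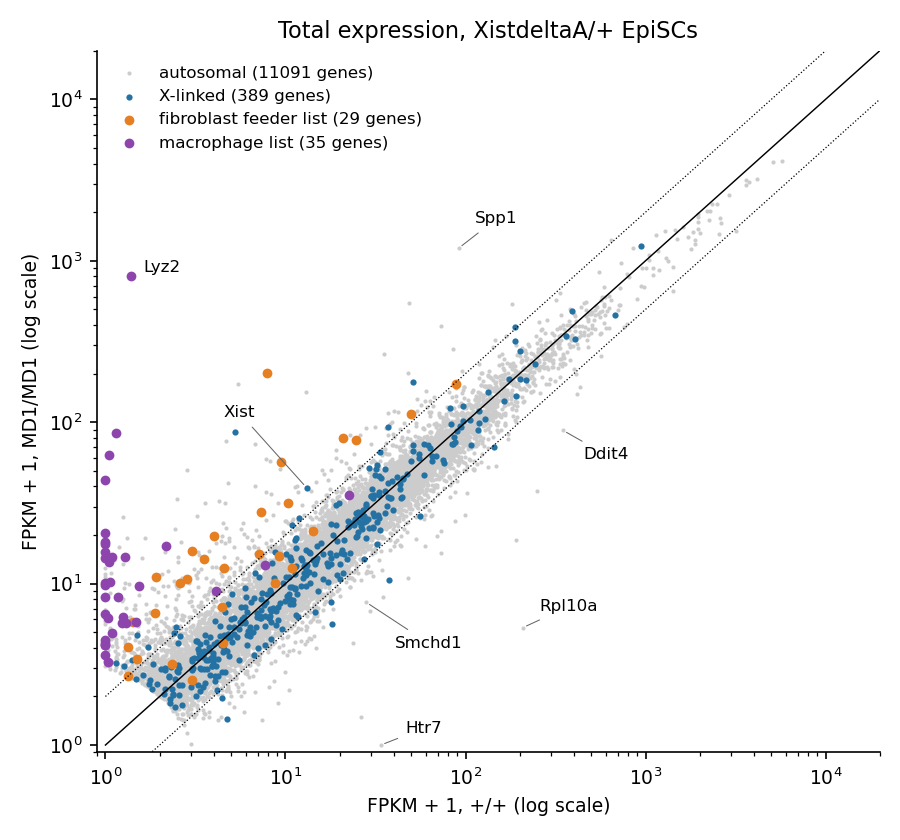
Total expression of each measured gene as FPKM + 1 in the +/+ library (x axis) and the MD1/MD1 library (y axis), both on log scales, with fibroblast and macrophage list genes in colour, a solid line of equality and dotted lines at 2-fold. The macrophage genes lie along the left edge, near 0 FPKM in +/+, and Lyz2 reaches 799 FPKM in MD1/MD1.

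The paternal X chromosome was read more in MD1/MD1 than in +/+. Over the 352 X-linked genes that had 20 or more allele-assigned reads in each library, the pooled paternal share was 4.52% of 166447 reads in +/+ (95% exact interval 4.42 to 4.62) and 14.8% of 184130 reads in MD1/MD1 (14.6 to 14.96). Intervals here cover counting error only. Xist and its neighbours Jpx and Ftx supplied a large part of these reads, and without them the shares were 2.58% and 9.22%. The median gene was at 0% in +/+ and 3.50% in MD1/MD1. A share under 1% was found for 249 genes in +/+ and for 90 in MD1/MD1, and a share from 10% to 20% for 7 and 60. At 30% or more there were 4 genes in +/+ and 11 in MD1/MD1. No paternal read was seen for 179 genes in +/+ and for 52 in MD1/MD1, and 140 genes had none in +/+ but at least 1 in MD1/MD1.

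Gene by gene, Fisher's exact test (two-sided) was run on paternal and maternal reads, with Benjamini-Hochberg adjustment over the 10173 genes of the whole table that had enough reads. Such a test compares the reads of both libraries and not the genotypes. It called a higher paternal share in MD1/MD1 for 154 X-linked genes (43.8%) and a lower share for 11 (3.12%). Of the 154, 48 rose by under 5 percentage points, 45 by 5 to 10 and 61 by 10 or more. Genes that passed from under 10% to 10% or more are called gained here. There were 71 of them (20.2% of 352), 66 of which also passed the test, while 4 genes passed the other way and 11 were at 10% or more in both libraries. Just inside this limit were Psmd10 (10.1%) and Mbtps2 (10.2%), and just outside were Usp11 (9.82%) and Atp6ap1 (9.68%).

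**Figure D2:**
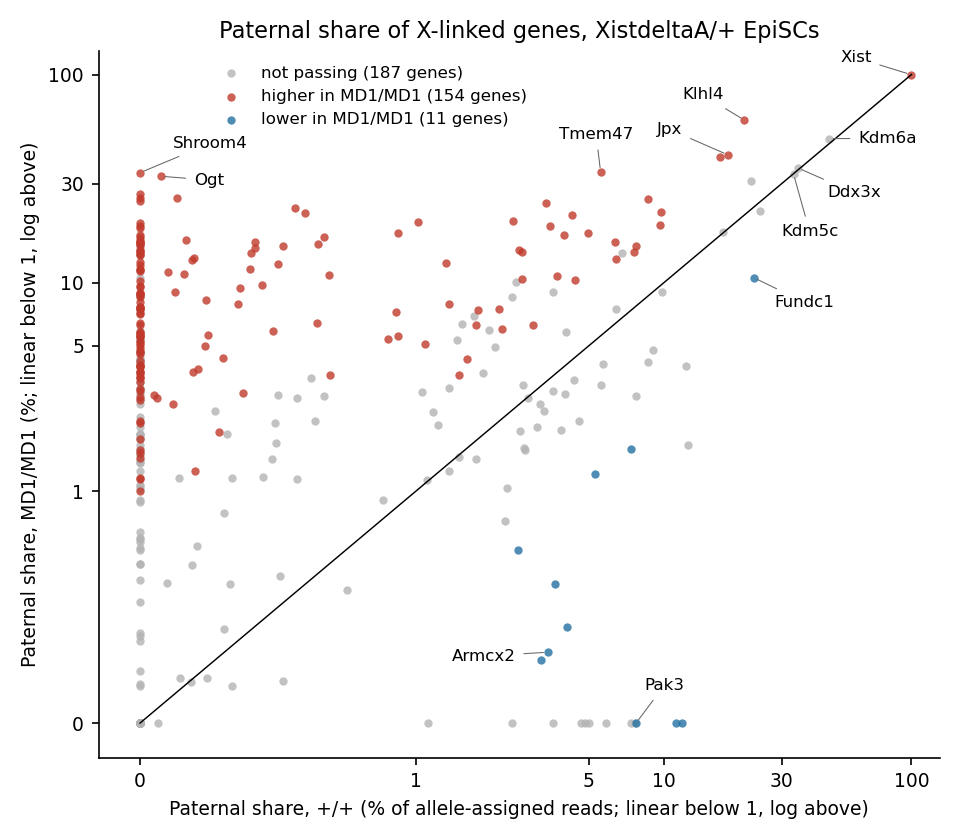
Paternal share of allele-assigned reads for 352 X-linked genes, +/+ on the x axis and MD1/MD1 on the y axis (%, linear below 1 and logarithmic above), with genes called higher or lower by Fisher's exact test in colour and the line of equality. A column of genes stands at 0% in +/+ and spreads up to 33.8% in MD1/MD1, while Ddx3x, Kdm6a and Kdm5c lie on the line.

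The largest rise was that of Klhl4, a member of the kelch-like protein family, from 21.2% of 33 reads to 60.4% of 53 reads (Fisher's exact test, adjusted p = 0.00146). Its few reads leave a 95% exact interval of 46 to 73.5% in MD1/MD1. Shroom4, which encodes an actin-binding protein of cell shape, had 0 paternal reads of 49 in +/+, which allows up to 6.12%, and 33.8% of 142 in MD1/MD1 (Fisher's exact test, adjusted p = 2.85e-07). Its relative Shroom2 went from 0.133% of 1508 reads to 25.6% of 1663 (Fisher's exact test, adjusted p = 4.28e-127). Rises were also called for genes with deep coverage. Ogt, which modifies proteins inside the cell with a single sugar, rose from 0.0748% of 1337 reads to 32.5% of 1544 (interval 30.2 to 34.9%, Fisher's exact test, adjusted p = 9.69e-153). Idh3g, a subunit of mitochondrial isocitrate dehydrogenase, rose from 0 of 1273 reads to 26.7% of 1088 (interval 24.1 to 29.5%, Fisher's exact test, adjusted p = 5.46e-108). Tmem47, a membrane protein of cell junctions, was already at 5.58% of 3049 reads in +/+ and reached 34.1% of 2591.

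Other rises among the 15 largest were those of genes with varied roles. Ercc6l, a helicase of mitotic chromosomes, went from 0 of 616 reads to 25.6%, and Taf1, the largest subunit of the general transcription factor TFIID, from 0 of 192 to 24.7%. Siah1b, a ubiquitin ligase, went from 0 of 201 reads to 18.9%, and Ndufa1, a subunit of respiratory complex I, from 0 of 399 to 19.3%. The membrane proteins Yipf6 and Mmgt1 rose from 0.562% to 22.8% and from 0.599% to 21.7%. Kantr, a long noncoding RNA, rose from 3.35% to 24.1%, with 83 reads in MD1/MD1. Of all X-linked genes compared, 79 had no paternal read in +/+ and passed the test as higher in MD1/MD1.

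At the X-inactivation centre 6 of 7 compared genes rose in paternal share and 0 fell. Over all 352 X-linked genes compared, 43.8% were called higher and 3.12% lower. Xist, which is transcribed from the inactive X, was read from the paternal allele in both libraries, at 99.5% of 3295 reads in +/+ and 99.9% of 11271 in MD1/MD1, a small difference that counts among the 154 rises. Its total stood at 12.1 FPKM in +/+ and 38.3 in MD1/MD1, a log2 ratio of 1.59. Its noncoding neighbours Ftx and Jpx rose from 16.9% to 40.2% and from 18.2% to 41.2%. Jpx had 34 reads in MD1/MD1 and lay close to the threshold (Fisher's exact test, adjusted p = 0.0462). Chic1 went from 0 of 180 reads to 16.9%, Rlim, a ubiquitin ligase that activates Xist, from 0.935% to 5.57%, and Tsix, the antisense partner of Xist, from 0 of 99 reads to 8.89% of 45. The sources used here do not say if reads of Xist and Tsix were counted by strand.

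Of 11 known escape genes compared, 4 rose in paternal share in MD1/MD1, 7 did not pass the test and 0 fell, with a median of 18.2% in +/+ and 30.9% in MD1/MD1. This is beside 43.8% of all X-linked genes called higher. The RNA helicase gene Ddx3x was at 34.8% of 3994 reads in +/+ and 35.6% of 6600 in MD1/MD1 (Fisher's exact test, adjusted p = 0.579). The histone demethylase genes Kdm5c and Kdm6a were at 33.4% and 33.4% and at 46.5% and 49.2%. Pbdc1 was at 24.6% and 22.2%, and Mid1, a microtubule-associated ubiquitin ligase, at 9.85% and 9.08%. None of these 5 passed the test, nor did 5530601H04Rik and Car5b. Of the same list Jpx and Ftx are given above, Utp14a rose from 4.96% to 17.3% and 1810030O07Rik from 9.69% to 19.07%. By total FPKM the list had 10 measured members, a median log2 ratio of 0.032 and 1 member past 2-fold, Mid1, at 10.9 and 24.5 FPKM.

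A lower paternal share in MD1/MD1 was called for 11 genes, and most of these differences were small. Fundc1, a receptor for the removal of mitochondria, fell from 23.1% of 559 reads to 10.6% of 358 (Fisher's exact test, adjusted p = 4.97e-06). Nhsl2 fell from 11.9% of 42 reads to 0 of 86, the transcription factor gene Foxr2 from 11.2% of 89 to 0 of 65, and the kinase gene Pak3 from 7.75% of 271 to 0 of 146. Cd99l2, an adhesion protein, fell from 7.38% to 1.6%, and the palmitoyltransferase gene Zdhhc9 from 5.28% to 1.21%. Pcyt1b, an enzyme of phosphatidylcholine synthesis, fell from 4.1% to 0.416%, and Armcx2 from 3.41% of 1086 reads to 0.306% of 981. The other 3 falls were those of Firre, Tmem164 and Armcx4, by 1.85 to 3.07 points. Of these, Firre, a noncoding RNA of nuclear organisation, was at 3.67% and 0.601%.

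Gained genes lay in neighbouring runs at several places. The longest run held 6 compared genes in a row, Otud5, Pim2, Slc35a2, Pqbp1, Timm17b and Pcsk1n (mm9, X, 7418957 to 7501536). Runs of 4 were Atp6ap2, 1810030O07Rik, Med14 and Usp9x (12164885 to 12750453), Ndufb11, Rbm10, Uba1 and Cdk16 (20192452 to 20277003), and Slc7a3, Snx12, Foxo4 and Med12 (98274549 to 98494273). A run of 3, Prkx, Prrg1 and Tmem47, spanned 75007374 to 78343214. The proximal 10 Mb held 15 gained genes of 31, and 70 to 80 Mb held 13 of 46. Between 40 and 70 Mb there were 1 of 20, 1 of 18 and 0 of 10 in successive intervals of 10 Mb. The median share in MD1/MD1 was 8.55% in the first interval and 1.09% at 60 to 70 Mb. Coverage differs between genes along the chromosome, and no test of position was made.

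Promoters are shown for 4 of the genes with the largest rises, which were picked for those rises. They were taken from RefSeq (GRCm38.p6) and run from 250 bases before to 50 bases after the annotated start, 5′ to 3′ on the strand of the gene. Capitals mark CG, the dinucleotide that is methylated at silenced promoters of the inactive X.
Ogt (chrX:101639801-101640100, plus strand): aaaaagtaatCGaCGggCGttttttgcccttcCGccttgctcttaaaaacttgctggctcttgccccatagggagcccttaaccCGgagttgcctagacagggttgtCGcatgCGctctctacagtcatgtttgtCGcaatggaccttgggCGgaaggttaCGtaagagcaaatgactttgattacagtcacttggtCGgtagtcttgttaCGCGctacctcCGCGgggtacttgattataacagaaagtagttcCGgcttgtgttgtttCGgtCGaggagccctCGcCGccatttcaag
Idh3g (chrX:73786848-73787147, minus strand): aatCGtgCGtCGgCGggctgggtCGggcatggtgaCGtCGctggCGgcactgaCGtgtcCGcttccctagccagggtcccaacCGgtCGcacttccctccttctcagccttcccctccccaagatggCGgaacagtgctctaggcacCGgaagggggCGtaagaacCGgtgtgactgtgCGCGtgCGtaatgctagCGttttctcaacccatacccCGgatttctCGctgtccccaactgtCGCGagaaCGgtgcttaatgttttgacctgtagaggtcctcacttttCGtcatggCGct
Shroom4 (chrX:6399782-6400081, plus strand): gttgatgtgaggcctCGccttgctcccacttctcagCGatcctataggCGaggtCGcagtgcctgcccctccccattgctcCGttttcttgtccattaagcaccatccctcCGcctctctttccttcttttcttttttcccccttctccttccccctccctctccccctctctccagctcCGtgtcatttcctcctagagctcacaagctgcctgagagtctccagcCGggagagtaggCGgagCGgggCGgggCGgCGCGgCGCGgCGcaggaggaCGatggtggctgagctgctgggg
Klhl4 (chrX:114474083-114474382, plus strand): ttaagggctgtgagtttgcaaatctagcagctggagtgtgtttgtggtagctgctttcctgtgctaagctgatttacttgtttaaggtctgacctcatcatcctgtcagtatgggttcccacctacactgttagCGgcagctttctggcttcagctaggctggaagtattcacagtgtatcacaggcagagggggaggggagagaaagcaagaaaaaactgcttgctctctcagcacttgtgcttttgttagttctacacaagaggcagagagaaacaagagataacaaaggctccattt
The promoters of Ogt, Idh3g and Shroom4 hold 20, 27 and 18 CG in this window, whereas that of Klhl4 holds 1. Of the 352 X-linked genes compared, 304 matched a promoter. Setting aside Xist, Jpx and Ftx, the genes with a higher share had a median of 19 CG, those that did not pass a median of 14, and the falls a median of 12. Over the 301 such X-linked genes with a promoter the median was 17, and 77.4% held 10 or more. The figure was 83.7% for the rises, 73.1% for genes that did not pass and 60% for the falls. Over all 27025 promoters of the table the median was 7, and 43.9% held 10 or more. Depth moved with the same classes, with a median of 438 allele-assigned reads in +/+ for the rises and 136 for genes that did not pass. Its part in the difference was not tested. Between gained genes and the others, a grouping by share alone, the medians were 18 and 16.

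Total expression of X-linked genes moved much as that of autosomal genes did. Of 393 measured genes, 18 (4.58%) were higher in MD1/MD1 by 2-fold or more and 8 (2.04%) lower by as much. Of the 18, 4 belong to the fibroblast and macrophage lists. Among 11151 autosomal genes 4.11% were higher and 1.81% lower. The median log2 ratio was -0.052 for X-linked genes, beside -0.047 for autosomal genes. The share of FPKM assigned to each allele shows how the paternal gain relates to the total. Over the 71 gained genes the paternal part (FPKM multiplied by the paternal share) summed to 42.2 FPKM in +/+ and 446 in MD1/MD1. The maternal part summed to 2122 and 2129 FPKM. Gained genes are defined by a rise in share, which itself favours a higher paternal part. The sums include Pim2 (50.1 and 176 FPKM in total) and Rpl10 (4.26 and 86.4), whose reads disagree with its FPKM. No sum without this pair was made, so the near-equal maternal sums do not show that the maternal part was unchanged. The median log2 ratio of total FPKM over the gained genes was 0.12, and 44 of the 71 were higher in MD1/MD1. Over the 278 genes that were not gained, Xist, Jpx and Ftx aside, the paternal part summed to 135 and 300 FPKM and the maternal part to 5784 and 5334, with a median log2 ratio of -0.077. The maternal part was lower in MD1/MD1 for 48 of the 71 gained genes and for 169 of the 278 others. Idh3g illustrates a gene whose total did not increase, with a paternal part of 0 and 27.7 FPKM and a maternal part of 127 and 75.8. Ogt had a paternal part of 0.0216 and 11.1 FPKM and a maternal part of 28.9 and 22.9. For Ercc6l both parts were higher in MD1/MD1, the paternal at 0 and 4.48 and the maternal at 10.2 and 13.1.

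**Figure D3:**
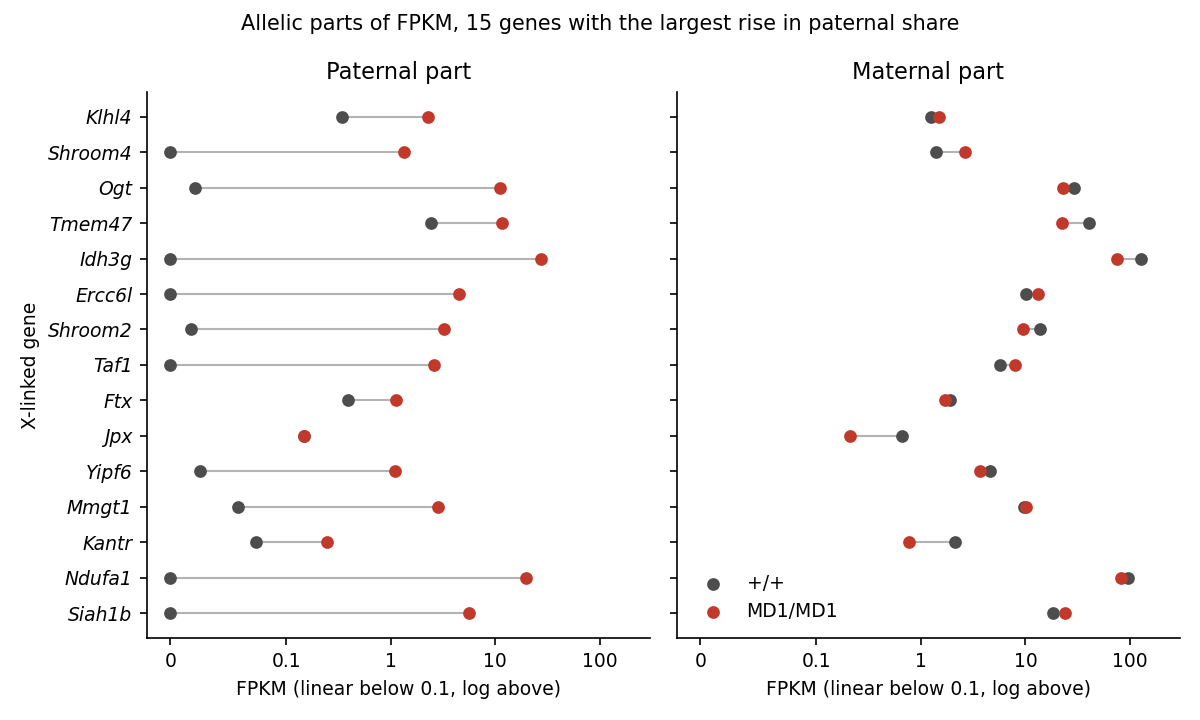
Paternal part (left) and maternal part (right) of FPKM for the 15 X-linked genes with the largest called rise in paternal share, on an axis that is linear below 0.1 and logarithmic above, 1 point per library. The paternal part is higher in MD1/MD1 for 14 genes and overlaps for Jpx, at 0.15 FPKM in both, while the maternal parts differ in either direction.

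The largest X-linked differences of total expression outside these lists were of varied kinds. Rpl10, a ribosomal protein gene, was listed at 4.26 FPKM in +/+ and 86.4 in MD1/MD1, but its allele-assigned reads went from 68 to 48, so the measures disagree. The ribosomal protein gene Rpl36a, at 36.1 and 92.6 FPKM, has no allele-assigned reads. Such genes have near-identical processed copies, which makes their levels uncertain. Pim2, a survival kinase, stood at 50.1 and 176 FPKM, and its paternal share rose from 6.41% to 13%. The other higher genes had low levels, among them the angiotensin receptor gene Agtr2 (0.151 and 2.21 FPKM), the homeobox gene Rhox6 (0.267 and 2.07), the placental gene Plac1 (0.407 and 2.37), Cxx1c (0.505 and 3.82), 3830417A13Rik (0.732 and 3.06) and Zcchc12 (1.46 and 4.35). The 8 lower genes were a mixed group. They included the tumour antigen gene Trap1a at 36.7 FPKM in +/+ and 9.47 in MD1/MD1, and the deubiquitinase gene Usp11 at 17.2 and 4.66. The somite gene Ripply1 stood at 3.71 and 0.446 FPKM, the nucleosome-binding gene Hmgn5 at 54.8 and 25.2, and the elongation factor-like gene Tceanc at 3.42 and 0.961. The thymosin genes Tmsb15b1 and the shared entry of Tmsb15b2 and Tmsb15l stood at 16.8 and 6.65 FPKM and at 13.6 and 5.65. Pgk1, an enzyme of glycolysis, stood at 142 and 69.4. The paternal share rose for Trap1a, from 3.95% to 17%, and for Usp11, from 0.443% to 9.82%, although both totals were lower.

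On the autosomes the cross leaves long segments with maternal-type alleles only, so shares were compared where both alleles could be seen. Windows of 10 Mb with at least 5 genes were called maternal-type only at a median share under 5% and as holding both alleles at 30% or more. Of 248 windows, 174 held both alleles in both libraries, 21 in +/+ alone with maternal-type only in MD1/MD1, 37 the reverse, and 13 were maternal-type only in both. The window with Smchd1 is among the 21. In the 174 windows, 6889 genes had a median paternal share of 49.1% in +/+ and 47.1% in MD1/MD1. Fisher's exact test called a higher share for 269 (3.90%) and a lower share for 1056 (15.3%), so calls on the autosomes went mainly the opposite way from those on the X chromosome.

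The largest autosomal rises included those of Ube2e2 and Ube2e1, ubiquitin-conjugating enzymes on chromosome 14 (0.338% to 65.8% and 1.22% to 50%), the lipid kinase gene Pik3cb (0% to 59.5%) and Faim (0% to 56.8%) on chromosome 9, Gpr125 (0.137% to 51%) and the helicase gene Dhx15 (0% to 48.6%) on chromosome 5, and Gm4349 on chromosome 3 (16.2% to 88.9%). Of the 8 largest, 7 had a share under 2% in +/+, and 3 stay in the comparison when both alleles are required among the 10 nearest measured genes. The largest falls included several genes of blood cells and matrix. Inpp5d, a lipid phosphatase of blood cells, fell from 90.9% of 33 reads to 7.69% of 78. Ncf1, a subunit of the phagocyte oxidase, fell from 83.3% to 23.3% while its FPKM went from 0.487 to 4.77. The myeloid receptor gene Cd300a fell from 75.9% to 19.7%, the surface protein gene Cd109 from 68.2% to 8.03%, the collagen gene Col8a1 from 55.9% to 1.61%, and Loxl1, which cross-links elastin, from 56.2% to 2.63%. Ikzf2, a lymphoid transcription factor, fell from 61.3% to 0 of 39 reads, and Fgfr1op, a centrosome gene on chromosome 17, from 53% to 0.301%. Of these 8 falls, 6 stay in the comparison by the 10 nearest genes.

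Genes with higher totals had lower paternal shares. Among genes of the 174 windows with a mean FPKM of at least 1, the 166 that were at least 2-fold higher in MD1/MD1 had a median share of 42.3% in +/+ and 29.4% in MD1/MD1. The 6285 genes between the limits had medians of 49.2% and 47.3%, and the 87 genes at least 2-fold lower had 49.5% and 46.3%. A share under 30% in MD1/MD1 was found for 85 of the 166, 401 of the 6285 and 11 of the 87. In +/+ it was found for 42, 306 and 8 of them. Of the 166, 31 were at least 4-fold higher, and their median share was 28% in +/+ and 14.3% in MD1/MD1. When FPKM is split by allele, the maternal part was higher by 2-fold or more for 193 genes and lower for 77, and the paternal part was higher for 73 and lower for 120. The fibroblast and macrophage lists hold 11 of the 166 genes, and the part of such RNA in the others was not tested.

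**Figure D4:**
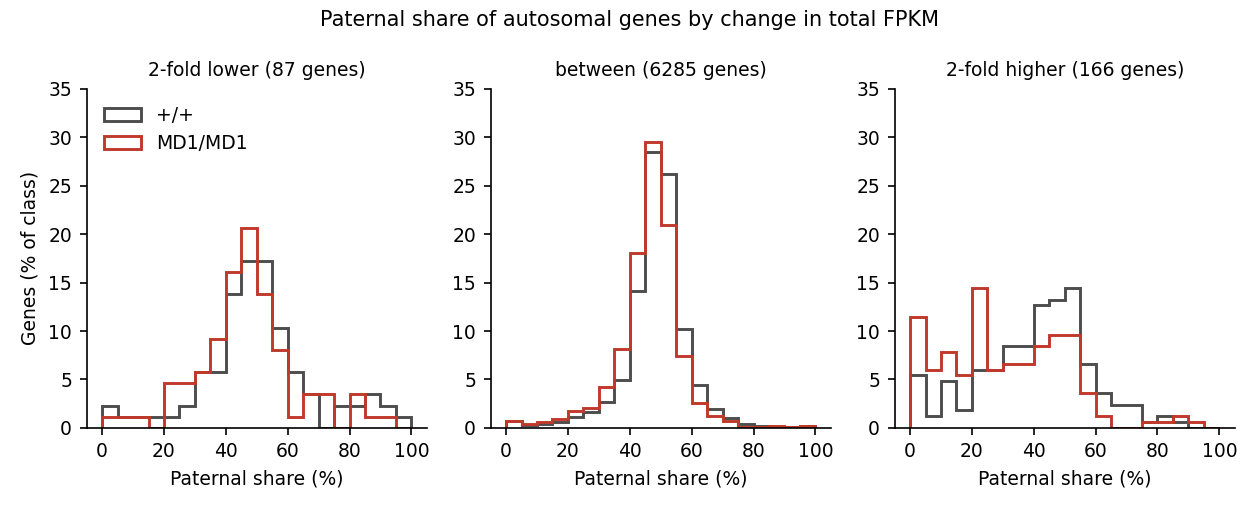
Distribution of the paternal share (x axis, %) over autosomal genes of windows with both alleles in both libraries, as a percentage of the genes in each class of total change, +/+ in grey and MD1/MD1 in red. The lower and the middle class peak between 40% and 60% in both libraries, whereas the class at least 2-fold higher has a broad left tail in MD1/MD1 and a median of 29.4%.

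Autosomal genes past 2-fold were also more often higher than lower in MD1/MD1. Of 11151 genes, 458 (4.11%) were higher by 2-fold or more and 202 (1.81%) lower by as much, beside 4.58% and 2.04% of X-linked genes. Without the fibroblast and macrophage lists 410 of 11091 autosomal genes were higher. The highest ratios outside the lists still belonged in large part to genes known from macrophages. Spp1, the secreted phosphoprotein osteopontin, stood at 90.5 FPKM in +/+ and 1195 in MD1/MD1. Lgals3, a galactose-binding lectin abundant in macrophages, stood at 3.68 and 75, the macrophage elastase gene Mmp12 at 0.119 and 13, and the lipase gene Pla2g7 at 0.324 and 18.1. Pf4 and Ms4a7 were listed at 0 in +/+ and stood at 11.5 and 10.6 FPKM in MD1/MD1. Wfdc17 stood at 0.19 and 15.9, and Ly6a at 1.82 and 49.3. Of stromal genes, the matrix gene Mgp stood at 12 and 153 FPKM and Angptl7 at 0.244 and 24.8. Nupr1, a stress-induced nuclear protein, went from 4.47 to 172 FPKM with 0.361% of 831 reads paternal in MD1/MD1, in windows with both alleles. The membrane-trafficking gene Ehd3 stood at 1.48 and 32.3 FPKM, and its paternal share fell from 58.3% to 7.59%. Ehd3 and Pla2g7 lie on chromosome 17 in windows with both alleles in +/+ and maternal-type alleles only in MD1/MD1. For both genes, strain of the segment and Smchd1 genotype cannot be told apart in these 2 libraries. The part of macrophage RNA in the level of Pla2g7 was not tested. In the Xist1lox/+ libraries Ehd3 stood at 2.64 FPKM in +/+ and 29.8 in MD1/MD1, and Pla2g7 at 4.84 and 4.24. The macrophage list summed to 463 and 417 FPKM there.

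Among the 12 lowest ratios, 5 lie in windows that hold both alleles in +/+ and maternal-type alleles only in MD1/MD1. These are the ribosomal protein genes Rpl10a (207 and 4.33 FPKM) and Rps28 (189 and 17.7), the serotonin receptor gene Htr7 (32.8 and 0), Ly6g6c (6.43 and 0.437) and the axoneme gene Rsph1 (47.1 and 9.78). Htr7 had 1075 reads in +/+, of which 100% were paternal, and 0 in MD1/MD1. For Rpl10a the allele-assigned reads number 4 and 13 and do not follow the FPKM. Strain of the segment and Smchd1 genotype cannot be told apart for these genes. The chemokine receptor gene Ackr4 (25.1 and 0.497 FPKM) and Tal2 (9.51 and 1.21) lie in windows that changed the other way. The remaining 5 lie in windows with both alleles in both libraries: the collagen-modifying enzyme gene Plod2 (247 and 36.2), Ppp1r14c (22.8 and 3.3), the scaffold gene Pdzk1 (8.12 and 0.819), the uridine phosphorylase gene Upp1 (71.9 and 14.4) and the thioesterase gene Acot1 (28.3 and 5.73). Lists aside, genes at least 2-fold lower made up 3.01% of 1062 measured genes in windows with both alleles in +/+ alone. The figure was 1.5% of 7608 in windows with both alleles throughout and 2.73% of 660 in windows with maternal-type alleles only throughout. In windows with both alleles in MD1/MD1 alone it was 2.25% of 1642. Genes at least 2-fold higher made up 2.73%, 3.71%, 3.64% and 4.02% in the same order.

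Some differences were carried by both alleles alike. Of the 166 genes at least 2-fold higher, 40 had a paternal share of 40 to 60% in both libraries, and of the 87 lower genes 39 did. The same count was not made for the 6285 genes between the limits, whose median shares were 49.2% in +/+ and 47.3% in MD1/MD1. The numbers 40 and 39 therefore say nothing about how these classes differ from other genes. The share rule leaves out genes whose reads came mainly from one allele, and the examples below were chosen after their values were seen. The transcription factor gene Egr4, one of the 40, stood at 8.36 FPKM in +/+ and 50.5 in MD1/MD1 with shares of 54.7% and 51.3%. The other transcription factor genes named here are Npas4 at 3.68 and 21.1 FPKM, Egr3 at 4.82 and 22.7, Nr4a1 at 52.8 and 137 and Klf6 at 62.8 and 133. The amino acid transporter gene Slc7a1 stood at 2.09 and 11.3 FPKM, and Mthfd2, an enzyme of mitochondrial folate metabolism, at 38.2 and 99.7. Among the 39 lower genes were Aldoc, a glycolytic aldolase (71.8 and 20.1), Ero1l, an oxidase of the endoplasmic reticulum (40.6 and 17.6), the mitotic genes Hmmr (53.7 and 25.1) and Ccnb2 (172 and 83.1), and the Polycomb gene Ezh1 (17.3 and 5.94). Log2 ratios of the named higher genes in the Xist1lox/+ pair ran from -0.74 (Slc7a1) to 0.18 (Klf6). Those of the named lower genes ran from -0.12 (Ccnb2) to 0.21 (Aldoc).

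Hypoxia and glycolysis genes formed the list with the lowest median. Of 22 measured members, 7 were lower in MD1/MD1 by 2-fold or more and 0 were higher at all, with a median log2 ratio of -0.81. The 7 are the stress gene Ddit4 (346 FPKM in +/+ and 88.1 in MD1/MD1), Ndrg1 (98.1 and 25.7), the kinase gene Pdk1, which restrains entry of pyruvate into mitochondria (25.3 and 9.51), the collagen hydroxylase gene P4ha1 (39.6 and 17.2) and the glycolytic enzyme genes Aldoa (3188 and 1536), Gapdh (132 and 52.1) and Pgk1, given above. FPKM and reads disagree for Aldoa, whose allele-assigned reads, scaled to the library total, gave a log2 ratio of -0.25 instead of -1.05. For Pkm, a pyruvate kinase, they gave 0.75 and -0.49. Ndrg1 also fell in paternal share, from 69.6% to 52.9%. In the Xist1lox/+ pair the log2 ratio of Ddit4 was -0.026 and that of Ndrg1 -0.091.

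Most lists of developmental state had few measured members. Of 19 primed pluripotency genes 3 were higher in MD1/MD1 by 2-fold or more and 0 lower, with a median log2 ratio of 0.17. These were the de novo DNA methyltransferase gene Dnmt3b (144 and 319.9 FPKM) and the transcription factor genes Sox2 (30.5 and 92.8) and Foxd3 (5.1 and 18.4). Their log2 ratios in the Xist1lox/+ pair were 0.15, -0.47 and -0.33 in the same order. Of 4 measured naive pluripotency genes 1 was past 2-fold, Klf5, at 4.56 and 11.6 FPKM. Of 4 mesendoderm genes 1 was past 2-fold, the growth factor gene Fgf8, at 8.96 and 23.3. The 3 measured endoderm genes included the basement membrane collagens Col4a1 (10.02 and 21.6) and Col4a2 (5.69 and 16), both also made by fibroblasts, and the median log2 ratio was 1.04. It was 0.029 with a minimum mean of 0.1 FPKM. Of 6 trophoblast genes, Hand1 (0.372 and 5.19) and Plac1 were past 2-fold, with a median of 0.78. Of 4 neural genes 0 were past 2-fold, with a median of 0.54. They were the neural stem cell filament gene Nes (28 and 47.9 FPKM), the tubulin gene Tubb3 (15.3 and 31.5), the X-linked factor gene Sox3 (31.3 and 16.6) and Hes5 (3.96 and 5.17). Of 11 germline genes 1 was measured, and it was within 2-fold.

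Genes with known roles on the inactive X were read on the FPKM + 1 scale. Of 25 measured members 1 was lower by 2-fold or more, Smchd1, and 0 higher, with a median log2 ratio of -0.081. Other members are named for their known roles. Lrif1, which binds Smchd1, stood at 6.65 and 5.41 FPKM, and the silencing cofactor Spen at 4.79 and 9.69, a log2 ratio of 0.88 by FPKM + 1 and 1.24 by allele-assigned reads. The maintenance DNA methyltransferase gene Dnmt1 stood at 69.1 and 66.4, the Polycomb gene Ezh2 at 77.6 and 80.3, and the H3K9 methyltransferase gene Setdb1 at 27.8 and 28.3. The X-linked H3K9 methyltransferase gene Suv39h1 was at 17.3 and 19 FPKM, and its paternal share rose from 0 of 216 reads to 12.6% of 270 (Fisher's exact test, adjusted p = 4.91e-09). Of the X-inactivation centre list 6 genes were measured, 1 past 2-fold (Xist), with a median log2 ratio of 0.18.

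Of 16 p53 target genes, 1 was higher in MD1/MD1 by 2-fold or more, the stress sensor gene Sesn2 (18.2 and 58.7 FPKM), and 2 lower, Trp53inp1 (32 and 13) and Zmat3 (27.9 and 11.9), with a median log2 ratio of -0.10. Of 16 cell cycle genes 0 were past 2-fold in either direction, with a median of -0.28. The most abundant by the mean of both libraries were the replication genes Pcna (229.7 and 267 FPKM), Mcm3 (169 and 181), Mcm2 (157 and 164) and Mcm6 (158 and 144). The lowest ratio of the list, picked out after the values were seen, was that of the mitotic kinase gene Plk1 (189 and 99.6). Of 13 MHC and interferon genes 1 was past 2-fold, H2-D1, at 27.1 and 91 FPKM, with a median of 0.28. H2-D1 lies on chromosome 17 in a window that holds both alleles in +/+ and maternal-type alleles only in MD1/MD1.

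Imprinted genes, which are read from the allele of only 1 parent, served to read the shares against known behaviour. Of the genes known to be paternal, 10 had enough reads in windows with both alleles in both libraries. At least 90% of reads were paternal for 8 of them in +/+ and for 5 in MD1/MD1. The neuronal gene Nnat was at 100% in both, Zdbf2 at 99.2% and 98.9%, and Peg10 at 99.2% and 98.3%. Sgce fell from 99.7% to 88%, and the transcription factor gene Plagl1 from 97.5% of 80 reads to 70.3% of 128. Igf2, a fetal growth factor, rose from 60.4% to 86% while its total went from 6.79 to 35.7 FPKM. Mest had 0 paternal reads of 95 in +/+ and 99.3% of 271 in MD1/MD1, and the shared entry of Snrpn and Snurf 0.175% and 99.2%. Both lie in windows that hold maternal-type alleles only in +/+. Impact, in a window of the reverse kind, was at 98% in +/+ and 0.285% in MD1/MD1. By total FPKM, 3 of 15 paternal genes were past 2-fold, all higher in MD1/MD1: Igf2, Ndn (2.77 and 14.8 FPKM) and Magel2 (0.515 and 2.39).

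Of the genes known to be maternal, 12 were compared in windows with both alleles, and 7 had at most 10% paternal reads in +/+ and the same number in MD1/MD1. H19, a noncoding RNA of the Igf2 locus, was at 0.0763% and 0.053% paternal, Cdkn1c, a cell cycle inhibitor, at 0% in both, and Meg3 at 2.36% and 5.74%. The growth factor adaptor gene Grb10 was at 0.40% and 1.06%. Genes with both alleles read in both libraries included Gnas (58.5% and 57.2%) and Ppp1r9a (48.1% and 49.6%). By total FPKM, 3 of 14 were past 2-fold, all higher in MD1/MD1: H19 (39.1 and 117 FPKM), Rian (35.3 and 73.6) and Mirg (5.52 and 17.7), and the last pair belong with Meg3 to 1 cluster on chromosome 12. H19 and Igf2 are also expressed by fibroblasts, and the part of feeder RNA in their levels was not tested.

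**Figure D5:**
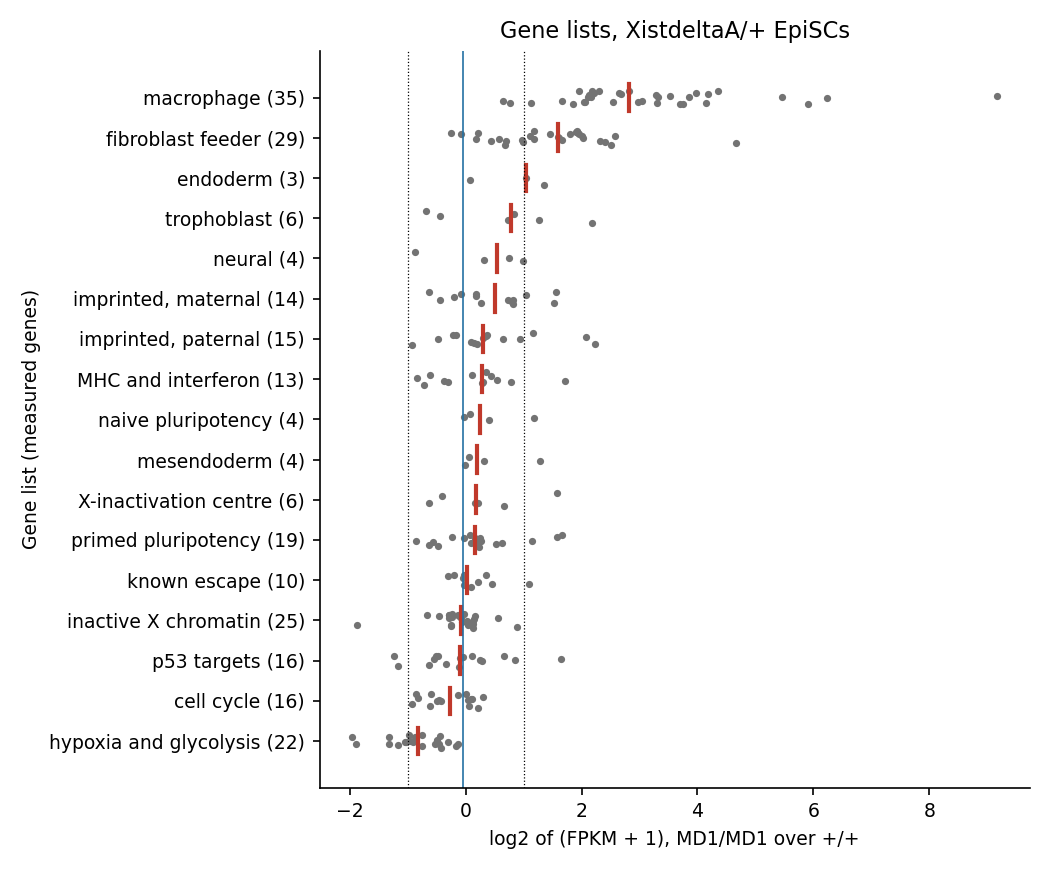
Log2 ratio of FPKM + 1, MD1/MD1 over +/+ (x axis), for each measured gene of 17 lists (y axis, with the number of measured genes), with 1 point per gene, a red bar at the median of the list, a blue line at the median of all genes and dotted lines at 2-fold. The macrophage and fibroblast lists lie furthest right, with medians of 2.82 and 1.59, and the hypoxia and glycolysis list furthest left, at -0.81.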

How the data were processed

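RNA-seq of the Smchd1 +/+ and MD1/MD1 EpiSC libraries with XistdeltaA/+ was analysed from the table that the authors deposited. Per the labels' protocols, total RNA was extracted with TRIzol and TruSeq Stranded mRNA libraries were prepared. Cufflinks 2.2.1, Cuffdiff and mm9 are named in the submitters' processing notes. As to the aligner, the strain variants, the annotation and any scaling between libraries, these are not given in the sources used. Per gene, the authors deposited the count of allele-assigned reads, the paternal fraction of these reads and FPKM, per the file headers. Fraction times count gave whole paternal reads for 100.0% of values within 1e-06. The table lists 22686 genes, 952 of them on the X chromosome. Another 6 columns with values of libraries outside the series were left out. Start positions are 0-based in the table (checked on 1097 olfactory receptor genes) and are printed counted from 1.

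Shares were compared for genes with at least 20 reads in both libraries (10173 genes) by Fisher's exact test, two-sided, with Benjamini-Hochberg adjustment over all of them and a threshold of 0.05. Intervals are Clopper-Pearson at 95%, and a count of 0 allows 3 reads of the total. Total expression was described as log2((FPKM + 1) of MD1/MD1 over +/+) where the mean FPKM was 1 or more. This understates the ratios of low genes. With 1 library a side no test across genes was made. Autosomal windows of 10 Mb were classed by their median share. Named genes are Smchd1 and Xist, the 15 largest rises and 8 largest falls in share on the X, 8 and 8 on autosomes, the 10 highest and 10 lowest X-linked (8 passed 2-fold) and 12 and 12 autosomal ratios outside the fibroblast and macrophage lists, and list members past 2-fold. Other names were added by known role or after values were seen. A pair of genes that these rules or lists name is not reported here. The members and the 19 gene lists were chosen with earlier results of these data known. Fisher's exact test and the fold step were run on simulated data drawn without variation between cultures or animals. Such a check covers the code and not the effect of that variation. Python 3.11.15, numpy 2.4.6, pandas 2.3.3, scipy 1.17.1 and matplotlib 3.10.9 were used.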

Additional observations from a re-analysis of the deposited data

Results flagged for a closer look

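The paternal share of a pair of the named X-linked genes changed by different amounts with the 2 Xist mutations, as judged by comparing both log odds ratios with a normal approximation and Benjamini-Hochberg adjustment over 341 X-linked genes with enough reads in all 4 libraries, 7 of which passed. Such a test compares reads of single libraries. Tmem47 rose by 28.5 points with XistdeltaA/+, from 5.58% to 34.1%, and by 14.5 points with Xist1lox/+, from 19.6% to 34.02%. Yipf6 rose by 22.2 points with XistdeltaA/+, from 0.562% to 22.8%, and by 16.8 points with Xist1lox/+, from 5.95% to 22.7%. In both genes the MD1/MD1 libraries were close and the +/+ libraries differed.

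Total expression of 4 genes was past 2-fold in opposite directions in the 2 pairs, and this difference was not tested. The log2 ratio of Ripply1 was -1.70 with XistdeltaA/+ and 1.12 with Xist1lox/+. That of Tal2 was -2.25 and 1.16. The log2 ratio of Igf2 was 2.24 with XistdeltaA/+, from 6.79 to 35.7 FPKM, and -1.33 with Xist1lox/+, from 11.9 to 4.14 FPKM. Pon2, a paraoxonase gene at low level, was at 1.44 with XistdeltaA/+, from 1.12 to 4.73 FPKM, and at -1.03 with Xist1lox/+, from 3.77 to 1.34 FPKM.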

How the results depend on the processing

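The increase of the pooled X-linked paternal share was 10.3 points, 6.64 without Xist, Jpx and Ftx, and 4.56 as the mean of gene shares. Minimums of 10 or 50 reads and leaving out list genes gave 10.2 to 10.5 points and 147 to 154 genes with a higher share. Adjustment over X-linked genes gave 158. None of the 3 list genes compared on the X chromosome was called, so leaving them out could not change the count. Gained genes numbered 118 and lost genes 16 at a limit of 5%, and 15 and 1 at 20%. Autosomal counts of share calls stayed within 1.5 times, also by the 10 nearest genes, an alternative chosen after seeing the data. With a pseudocount of 0.1, 16 X-linked and 367 autosomal genes were at least 2-fold lower. At a mean FPKM of at least 5, 10 X-linked and 222 autosomal genes were at least 2-fold higher. By allele-assigned reads scaled to the library total, 40 X-linked genes were higher and 21 lower, and 984 autosomal genes higher and 464 lower. The cause was not tested. In windows with both alleles, 73 genes were at least 2-fold higher by the paternal part of FPKM, against 166 by the total. By reads the log2 ratio of Rpl10 was -0.47 and that of Rpl10a 0.80, the reverse of FPKM. Ratios of 193 genes (the highest and lowest, list members past 2-fold and genes with both alleles alike) were computed again. A pseudocount of 0.1 kept 193 past 2-fold in the same direction, and centring on the autosomal median kept 183 and took 10 below 2-fold. By reads, among genes with enough of them, 156 stayed past 2-fold and 10 went below, apart from the reversed pair. Those named were Hmgn5 (-0.90), Aldoa (-0.25) and Ccnb2 (-0.82) by reads, and Pgk1 (-0.98) and Ccnb2 (-0.99) after centring. No paired analysis was possible because each genotype is 1 library, and for the same reason no replicate could be left out. Genes with few variants or few reads limit what can be seen: 352 of 952 X-linked genes could be compared for share.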

Other observations

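Besides Tmem47 and Yipf6, 5 of the 7 X-linked genes whose change in paternal share differed between the XistdeltaA/+ and the Xist1lox/+ pair are given here as values, +/+ before MD1/MD1. Kif4, a mitotic motor protein, went from 0% to 13.6% in the XistdeltaA/+ pair, and its shares in the other pair were 21.9% and 32.2%. Snx12, a sorting nexin, went from 0.416% to 14.8%, beside 20.6% and 28.7% in the Xist1lox/+ pair. The shares of Hmgn5 were 0% and 8.59% in the first pair and 34.1% and 41.8% in the second. In these 3 genes the +/+ library with Xist1lox/+ had a higher paternal share than either library with XistdeltaA/+. Utp14a started lower in the Xist1lox/+ pair, with shares of 1.19% and 16%, beside 4.96% and 17.3% in the first. For Wbp5 the share was 1.49% and 3.60% in the first pair and 4.31% and 3.30% in the second.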
